A study of Bos taurus with 38 samples.

Results

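REC8 and UHRF1 are 2 of the 24616 Ensembl genes in the liver count tables of Holstein and Jersey dairy cows. They were taken by identifier, as ENSBTAG00000002705 (REC8) and ENSBTAG00000002224 (UHRF1), from a list of genes that differed between high- and low-RFI Holsteins. Their difference between the Holstein RFI groups is therefore given as a description without a test. The contrast behind that list did not compare the Jerseys, the diets, parity or breed. The genes were taken from the list with earlier results of these data known.

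Each of 9 Holsteins and 10 Jerseys was biopsied once on a control diet (C) and once on a high concentrate diet (HC), which gave 38 RNA-Seq libraries. The diets were given in a crossover of 2 periods. In the first period 5 Holsteins and 5 Jerseys were on HC and the remaining cows on C. Residual feed intake (RFI) is the feed eaten minus the feed predicted from production, so that the high-RFI cows are the less efficient ones, and the submitters' label of high feed efficiency corresponds to low RFI. The Holsteins comprised 4 high-RFI and 5 low-RFI cows, and the Jerseys 5 of each. All cows were lactating animals of parity 1, 2 or 3, with 3 Holsteins at each parity, and 4, 2 and 4 Jerseys at parity 1, 2 and 3. No other treatment or genotype separated the groups, and a cow is named below by the number in its label.

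REC8 encodes the kleisin subunit of meiotic cohesin, the ring that holds sister chromatids together, and takes the place that RAD21 has in dividing body cells. UHRF1 binds hemimethylated DNA behind the replication fork and recruits the maintenance methyltransferase DNMT1, and it is best known from dividing cells. Most hepatocytes of an adult liver are not dividing, and neither gene is among the classical liver genes. In the bovine RefSeq annotation REC8 lies between IPO4 and IRF9, and UHRF1 between KDM4B and ARRDC5. The read pairs of these neighbours are not given, because no table used here paired their symbols with Ensembl identifiers.

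Between 17472750 and 24478289 read pairs per library fell on genes, with a median of 19814536. Levels are given as read pairs per 1000000 on genes (CPM), so that 1 CPM was about 20 read pairs. CYP7A1, which encodes the rate-limiting enzyme of bile acid synthesis in hepatocytes, was at 38 to 1042 CPM over the 38 libraries. Among the T and NK cell markers whose identifiers were known, CD3D was at 1.74 to 8.37 CPM and NKG7 at 5.87 to 16.7 CPM. The part of cells other than hepatocytes in the levels of REC8 and UHRF1 was not tested, and in bulk tissue fewer cells with a transcript and less transcript per cell cannot be told apart.

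Several libraries stood apart from the other library of the same cow. Over 62 genes that were on in some Jersey libraries and off in others, the libraries of cow 10 were alike in 41 and those of cow 17 in 48. The HC library of cow 10 was alike to the HC library of cow 17 in 62 of 62, and the C libraries of these cows were alike in 53. Jersey cow 14 matched itself in 47 genes, against 54 to 62 in the remaining Jerseys. Of 61 such genes in the Holsteins, cow 15 matched itself in 44, and the other Holsteins in 56 to 61. The Jersey results were therefore also computed without cows 10 and 17.

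REC8 was either nearly absent or clearly present in a cow. It was below 1 CPM in 26 libraries, with 1 to 13 read pairs each, and at 8.62 CPM or more in the remaining 12, with 173 to 1914 read pairs each. No library lay in the 11.6-fold gap between 0.744 and 8.62 CPM. The 12 libraries were both libraries of 6 cows, namely Holsteins 1, 6, 11 and 16 and Jerseys 13 and 18, and no cow was split by the gap.

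**Figure D1:**
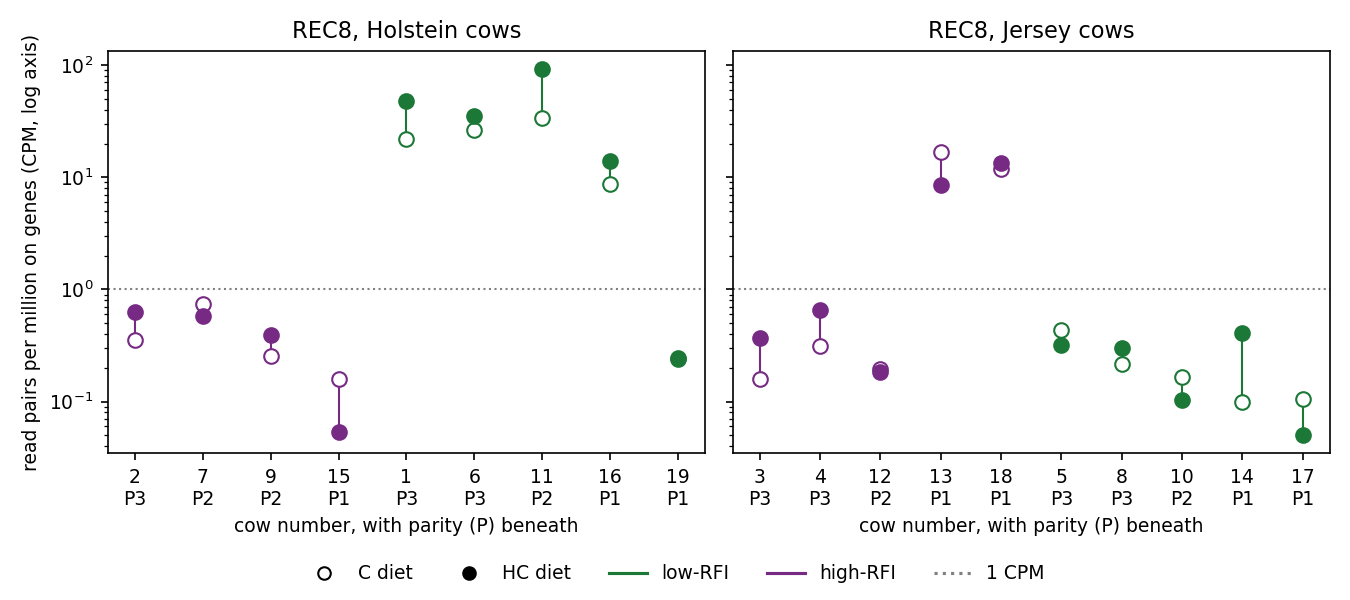
REC8 in every library, as CPM on a log axis, by cow number and parity; open points are the C diet, filled points the HC diet, and a line joins the libraries of a cow. In this plot 4 low-RFI Holsteins and 2 high-RFI Jerseys sit at 8.62 CPM or more, and every other cow has both points below 1 CPM.

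In the low-RFI Holsteins, REC8 was at 21.9 CPM on C and 48.3 on HC in cow 1, and at 26.4 and 35.0 in cow 6. It was at 33.9 and 92.2 CPM in cow 11, the highest of all cows, and at 8.79 and 14.0 in cow 16. The remaining low-RFI Holstein, cow 19, was at 0.245 and 0.240 CPM. REC8 was thus present in 4 of these 5 cows on both diets, and the fifth resembled the high-RFI group.

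In the high-RFI Holsteins, REC8 was at 0.353 CPM on C and 0.633 on HC in cow 2, and at 0.744 and 0.583 in cow 7. It was at 0.256 and 0.394 CPM in cow 9, and at 0.158 and 0.0537 in cow 15. None of these 8 libraries reached 1 CPM. The cow means were 28.1 ± 24.2 CPM (SD, n = 5) in the low-RFI group and 0.397 ± 0.238 CPM (SD, n = 4) in the high-RFI group, and the groups overlapped through cow 19. The log2 fold change of high- against low-RFI, as fitted here, was -6.51 with an SE of 0.68, a description of the contrast on which the study had listed the gene. That fit took the libraries of a cow as independent, so its SE is not one over cows.

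In the Jerseys the cows with REC8 were in the high-RFI group. Cow 13 was at 16.8 CPM on C and 8.62 on HC, and cow 18 at 11.8 and 13.4. The remaining high-RFI Jerseys were low, with 0.159 and 0.370 CPM in cow 3, 0.316 and 0.652 in cow 4, and 0.194 and 0.183 in cow 12. In the low-RFI Jerseys, cow 5 was at 0.432 and 0.320 CPM, cow 8 at 0.217 and 0.300, and cow 14 at 0.100 and 0.409. Cow 10 was at 0.166 and 0.104 CPM, and cow 17 at 0.107 and 0.0503. None of the 10 low-RFI libraries reached 1 CPM, and the 4 libraries of cows 10 and 17 were all below it whichever of these cows they came from.

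UHRF1 was graded rather than on or off. It was below 1 CPM in 10 libraries, with 3 to 18 read pairs each, and at 1.02 to 12.8 CPM in the other 28, with 19 to 253 read pairs each. The step across 1 CPM was only 1.15-fold. The highest library was 83.2 times the lowest, against 1832 times for REC8.

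**Figure D2:**
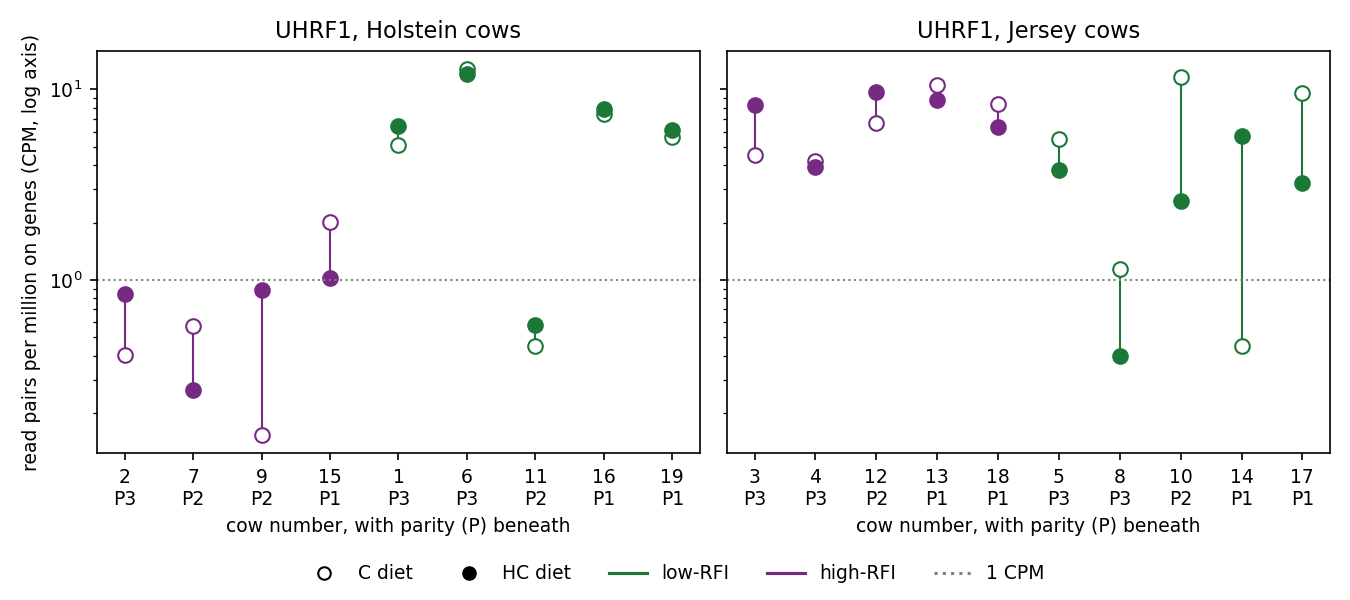
UHRF1 in every library, as CPM on a log axis, by cow number and parity; open points are the C diet, filled points the HC diet, and a line joins the libraries of a cow. The high-RFI Jerseys all lie between 3.91 and 10.5 CPM, and the C and HC points of Jerseys 10, 14 and 17 are far apart.

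In the low-RFI Holsteins, UHRF1 was at 5.12 CPM on C and 6.40 on HC in cow 1, 12.8 and 12.1 in cow 6, and 7.42 and 7.91 in cow 16. Cow 19, which lacked REC8, was at 5.64 and 6.15 CPM. Cow 11, the highest for REC8, was at 0.449 and 0.578 CPM. The presence of REC8 and that of UHRF1 thus differed in 2 of these 5 cows.

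In the high-RFI Holsteins, UHRF1 was at 0.404 CPM on C and 0.844 on HC in cow 2, and at 0.572 and 0.265 in cow 7. It was at 0.154 and 0.886 CPM in cow 9, and at 2.00 and 1.02 in cow 15. The cow means were 6.45 ± 4.28 CPM (SD, n = 5) in the low-RFI and 0.768 ± 0.502 CPM (SD, n = 4) in the high-RFI group, which overlapped through cow 11. The fitted log2 fold change of high- against low-RFI was -2.30 with an SE of 0.47, again with the libraries of a cow taken as independent. Leaving out 1 cow at a time moved it from -2.93 to -1.50. In that contrast, 8 of 12025 genes (0.0665%) had an adjusted p under 0.05, and since both genes had been listed on this contrast, nothing is read from this share.

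In the high-RFI Jerseys, UHRF1 was at 4.55 CPM on C and 8.25 on HC in cow 3, 4.20 and 3.91 in cow 4, and 6.63 and 9.63 in cow 12. Cow 13 was at 10.5 and 8.76 CPM, and cow 18 at 8.39 and 6.37. All 10 libraries of this group were above 3 CPM. In the low-RFI Jerseys, cow 5 was at 5.51 and 3.79 CPM, and cow 8 at 1.14 and 0.400. Cow 10 was at 11.6 and 2.60 CPM, and cow 17 at 9.59 and 3.22, so that these cows resembled each other within a diet more than either resembled itself. Cow 14 was at 0.448 CPM on C, from 9 read pairs, and at 5.72 on HC, from 140.

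Ordered by the median of the cow means, REC8 was at 30.7 CPM in the low-RFI Holsteins, then 0.484 in high-RFI Jerseys, 0.409 in high-RFI Holsteins and 0.254 in low-RFI Jerseys. The ranges of neighbours in this order overlapped: 0.243 to 63.1, 0.188 to 12.7, 0.106 to 0.663, and 0.0784 to 0.376 CPM. For UHRF1 the order was the high-RFI Jerseys at 7.38 CPM, the low-RFI Holsteins at 5.90, the low-RFI Jerseys at 4.65 and the high-RFI Holsteins at 0.572. Neighbours overlapped here too, with ranges of 4.06 to 9.65, 0.514 to 12.4, 0.770 to 7.12, and 0.419 to 1.51 CPM.

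Cow by cow, REC8 and UHRF1 did not mark the same animals. Of the 6 cows with REC8, Holsteins 1, 6 and 16 and Jerseys 13 and 18 had UHRF1 at 5.76 to 12.4 CPM on average, and Holstein 11 had 0.514 CPM. Of the remaining cows, Jersey 12 had a mean of 8.13 CPM of UHRF1, Jersey 10 had 7.12 and Holstein 7 had 0.419. Among the cows without REC8, UHRF1 thus spanned 0.419 to 8.13 CPM.

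**Figure D3:**
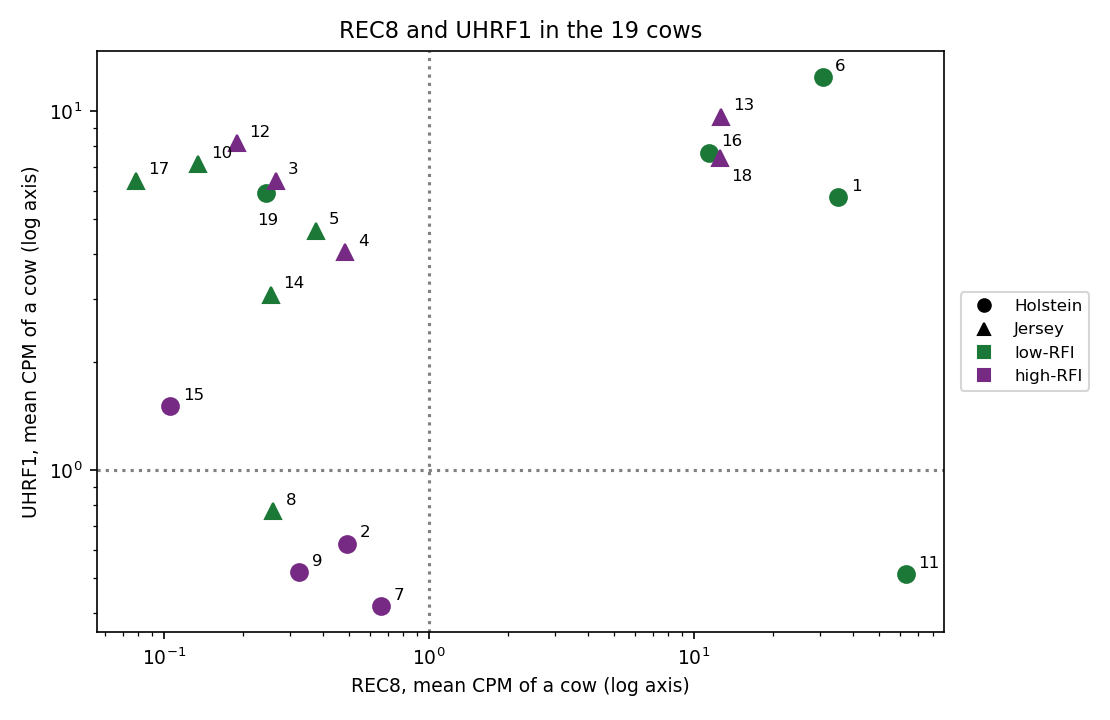
Mean CPM of REC8 (horizontal, log axis) against mean CPM of UHRF1 (vertical, log axis) of the libraries of each cow; circles are Holsteins, triangles Jerseys, colours RFI groups, and dotted lines mark 1 CPM. Of the 6 cows with REC8, 5 also have UHRF1 above 5 CPM and Holstein 11 is high for REC8 alone, and the cows without REC8 are spread along the vertical axis.

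The next question was how well the C and HC biopsies of a cow agreed. The share of the variance in log2 CPM that lay between cows (intraclass correlation) was 0.973 for REC8 and 0.906 for UHRF1 in the Holsteins, where the median of 12025 genes was 0.132. Both genes were chosen for a difference between groups of these cows, which itself raises this share, so the Holstein values are descriptions. The Jerseys had no part in that Holstein contrast, though the genes were taken from its list with earlier results of these data known. In them the share was 0.954 for REC8, above 99.9% of 11905 genes with a median of 0.0406. REC8 did not pass the limit on low counts in the Jerseys and is not one of these genes. Only Jerseys 13 and 18 had REC8, and the 8 others had 1 to 13 read pairs per library. The share thus rests on the gap between these 2 cows and the others. It was 0.938 without cow 13 and 0.923 without cow 18, and leaving out both was not tested. The share was 0.952 without cows 10 and 17, but both lacked REC8, so this could change it little.

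For UHRF1 the share was 0.385 in the Jerseys. It was 0.602 without cow 14 and 0.535 without cows 10 and 17, which are the cows whose libraries matched poorly, and -0.0446 without cow 8. The SD of the cow means was 3.29 on the log2 scale for REC8 and 1.91 for UHRF1 in the Holsteins. In the Jerseys it was 2.26 for REC8 and 1.11 for UHRF1, which ranked 76 of 11905 genes with a median of 0.166.

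**Figure D4:**
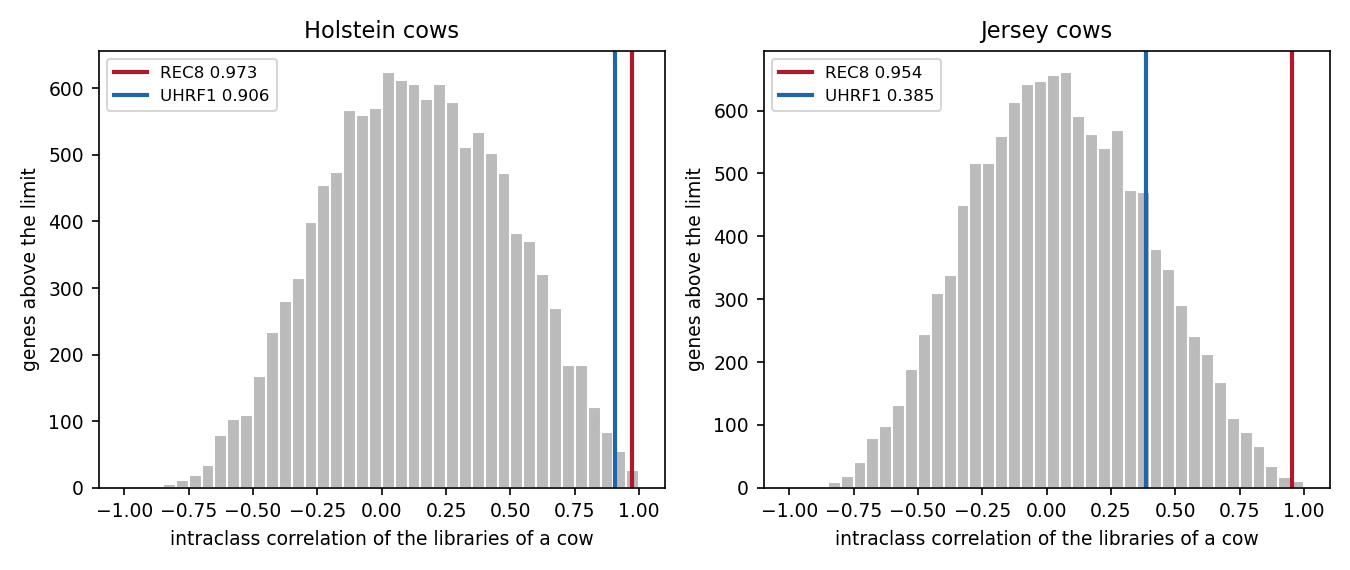
Number of genes above the limit on low counts (vertical) by the intraclass correlation of the C and HC libraries of a cow (horizontal, no unit), by breed; coloured lines mark REC8 and UHRF1. REC8 lies at the right edge in both breeds, at 0.973 and 0.954, and UHRF1 at 0.906 (Holsteins) and 0.385 (Jerseys); the genes were chosen on a Holstein contrast, and REC8 did not pass the limit in the Jerseys and is not counted in their bars.

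For tests across all genes, a gene needed at least 1 CPM in 8 Holstein or 10 Jersey libraries. UHRF1 passed in both breeds, and REC8 in the Holsteins only, where 8 of 18 libraries reached 1 CPM against 4 of 20 in the Jerseys. REC8 passed through the low-RFI Holsteins alone. In the Jerseys REC8 was tested by exact permutation of cows. The exact tests below are two-sided, use log2 CPM, and are not adjusted. With all cows they number 18 over both genes, and those with cows left out are further tests beyond these 18.

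REC8 was higher on the HC diet in each of the 4 Holsteins that expressed it. The ratios of HC to C were 2.21 in cow 1, 1.33 in cow 6, 2.72 in cow 11 and 1.6 in cow 16. In the 5 other Holsteins, with 1 to 13 read pairs per library, the ratios lay between 0.340 and 1.79. In the model of the study, with parity, diet and RFI group but no term for the cow, the log2 fold change of HC against C was 0.87 with an SE of 0.53 (edgeR adjusted p = 0.561). That fit called 94 of 12025 genes (0.782%).

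When each cow was compared with itself, by taking the cow as a fixed block, the same log2 difference of REC8 was 0.88 with an SE of 0.15 and passed the test (edgeR adjusted p = 0.00750). That fit called 345 genes (2.87%), and 1.27% of genes as higher on HC. The 4 Holsteins with REC8 carry this difference of REC8, since the 5 others had 1 to 13 read pairs per library. Leaving out 1 of those 5 could therefore change it little. The call held with each of the 9 cows left out (edgeR adjusted p = 0.00553 to 0.0413, the highest without cow 11). It also held with the order of the diets as a further term (log2 fold change 0.74, edgeR adjusted p = 0.00755), a fit that called 2.59% of genes. It was not made with the cow as a random effect (log2 fold change 0.84, limma adjusted p = 0.391), nor by the exact sign-flip test, in which all 9 cows weigh alike and 6 were higher on HC (exact p = 0.102). Without cow 19 the fit with no cow term also passed (log2 fold change 0.88, edgeR adjusted p = 0.0478) and called 0.316% of genes. The order of the diets is not in the labels. The paper's list of cows, sorted by cow ID, matches the labels in breed and parity. Its column of RFI groups, however, names every cow so matched opposite to the RFI groups used here. The cows it names High have the lower RFI values in each breed, with an overlap in the Holsteins. By that list, Holsteins 1, 11 and 16 had C first and Holstein 6 had HC first. Among the Holsteins with REC8, HC was thus mostly the second period, so diet and period cannot be cleanly told apart.

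In the Jerseys with REC8, cow 13 had 0.514 times and cow 18 had 1.14 times its C level on HC. The mean log2 difference over the 10 Jerseys was 0.12, with 5 of 10 cows higher on HC (exact sign-flip p = 0.590). The difference in the diet response of REC8 between the breeds (Jersey minus Holstein) was -1.27 on the log2 scale with an SE of 1.59 (edgeR adjusted p = 0.899). With the cow as a block it was -0.84 with an SE of 0.29 (edgeR adjusted p = 0.535). REC8 entered these fits only through the low-RFI Holsteins, and among the Jerseys only cows 13 and 18 expressed it. Whether its diet response differs between the breeds can therefore not be decided here.

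UHRF1 did not pass the test of diet in either breed. In the Holsteins its log2 fold change of HC against C was 0.15 with an SE of 0.38 (edgeR adjusted p = 0.925), and 0.16 with the cow as a block (edgeR adjusted p = 0.761). In the Jerseys it was -0.24 with an SE of 0.41 (edgeR adjusted p = 0.863), where 44 of 11905 genes (0.37%) were called. Although 7 of 10 Jerseys were lower on HC, cow 14 was 12.8 times higher. Without cows 10 and 17, whose ratios of HC to C were 0.223 and 0.336, the value turned to 0.27 (edgeR adjusted p = 0.909). The breed difference in the response of UHRF1 was -0.27 with an SE of 0.86 (edgeR adjusted p = 0.971).

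**Figure D5:**
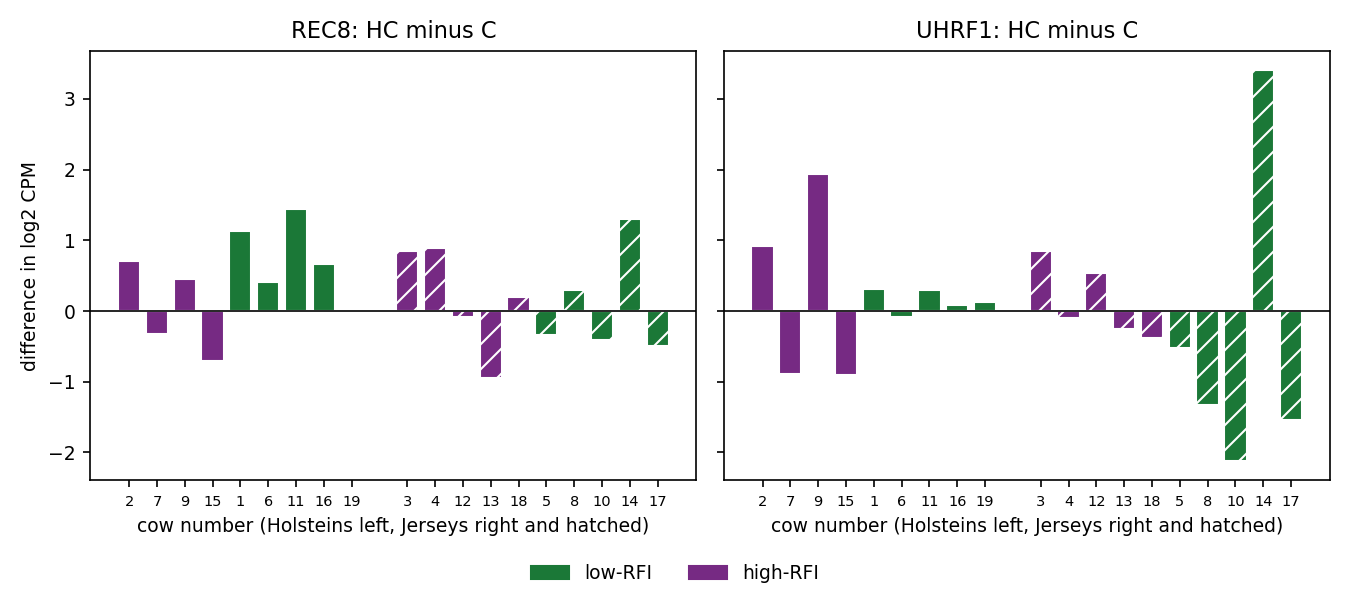
Difference in log2 CPM between the HC and C libraries of each cow (vertical), by cow number, for REC8 and UHRF1; plain bars are Holsteins, hatched bars Jerseys, and colours RFI groups, with a prior count of 2 read pairs in log2 CPM. For REC8 the low-RFI Holsteins 1, 6, 11 and 16 all lie above 0, and for UHRF1 the largest bars are those of Jerseys 14 and 10 and Holstein 9.

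The interaction of diet and RFI group was not called for either gene. For REC8 in the Holsteins it was -0.81 on the log2 scale (high- minus low-RFI) with an SE of 1.62 (edgeR adjusted p = 1), and for UHRF1 -0.05 with an SE of 0.92 (edgeR adjusted p = 1). For UHRF1 in the Jerseys it was 0.96 with an SE of 0.81 (edgeR adjusted p = 0.999), and -0.22 without cows 10 and 17. REC8 in the Jerseys gave 0.11 (exact permutation p = 0.833). REC8 was below 1 CPM in all 8 high-RFI Holstein libraries and all 10 low-RFI Jersey libraries. Whether its diet response differs between RFI groups can therefore not be decided here. In this interaction edgeR called 0 genes (0%) in both breeds, although the unadjusted p was under 0.05 for 206 genes in Holsteins and 443 in Jerseys. DESeq2 called 0 and 2. For diet and breed edgeR likewise called 0 genes (0%), with 822 at an unadjusted p under 0.05, and DESeq2 called 1.

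The Jerseys gave the RFI contrast in cows outside the Holstein contrast that listed the genes. The genes were taken from that list with earlier results of these data known. UHRF1 was at 7.12 ± 2.08 CPM (SD, n = 5) in the high-RFI and 4.41 ± 2.57 CPM (SD, n = 5) in the low-RFI Jerseys. The log2 fold change of high- against low-RFI was 0.78 with an SE of 0.41 (edgeR adjusted p = 0.907; exact permutation p = 0.0635), and 4 of 11905 genes (0.0336%) were called. Without cows 10 and 17 it was 1.20 with an SE of 0.49 (edgeR adjusted p = 0.681; exact permutation p = 0.0357). These cows had the highest UHRF1 means of the low-RFI Jerseys, 7.12 and 6.41 CPM, so leaving them out widens the contrast. The 3 low-RFI cows left against 5 allow no exact p below 0.0179, and nothing is read from this unadjusted value.

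REC8 was at 5.25 ± 6.76 CPM (SD, n = 5) in the high-RFI and 0.220 ± 0.116 CPM (SD, n = 5) in the low-RFI Jerseys. The mean log2 difference was 2.37 (exact permutation p = 0.0873), and 2.02 without cows 10 and 17 (exact permutation p = 0.286). It fell below 0.05 when cow 3 or cow 12, high-RFI Jerseys without REC8, was left out (exact permutation p = 0.0397 and 0.0238). An edgeR fit with no limit on low counts gave a log2 fold change of 3.76 (edgeR adjusted p = 0.0399) and called 0.0431% of genes. That fit treats the libraries of a cow as independent, so that the 2 Jerseys with REC8 enter as 4 libraries. The exact permutation takes the cow as the sample. For both genes the Jersey value was positive and the Holstein value negative. The difference between the breeds in the effect of RFI was not tested, because the Holstein contrast had chosen the genes.

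Neither gene was called for parity. REC8 was present in 1 of 3 Holsteins at parity 1, 1 of 3 at parity 2 and 2 of 3 at parity 3, whereas the Jerseys with REC8 were both at parity 1. In the Holsteins the log2 fold change of parity 3 against parity 1, on counts summed over the libraries of a cow, was 2.47 with an SE of 0.95 (edgeR adjusted p = 0.721). It was 6.50 without cow 16 and 1.54 without cow 19 (edgeR adjusted p = 0.271 and 0.477), and 4.05 over libraries with the cow as a random block (limma adjusted p = 0.0759). The exact permutation p was 0.2, where 3 cows against 3 allow none below 0.1. In the Jerseys the mean log2 difference was -2.0 (exact permutation p = 0.429). It was -3.08 without cows 10 and 17 (exact permutation p = 0.143), -1.06 without cow 13 and -1.03 without cow 18. One gene (0.00832%) was called for parity in the Holsteins.

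For UHRF1 the 3 Holsteins of parity 2 were the low ones, with cow means of 0.419 to 0.520 CPM, and they belonged to both RFI groups. At parity 1 the cow means were 1.51 to 7.67 CPM, and at parity 3 they were 0.624 to 12.4 CPM. The log2 fold change of parity 3 against parity 1 was 0.08 with an SE of 0.55 (edgeR adjusted p = 0.988). In the Jerseys it was -0.76 with an SE of 0.45 (edgeR adjusted p = 0.612), and edgeR called 0 genes (0%) there, with 1158 at an unadjusted p under 0.05, while DESeq2 called 122.

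Between the breeds, the levels overlapped for both genes. REC8 was at 15.8 ± 22.5 CPM (SD, n = 9) in the Holsteins and 2.73 ± 5.23 CPM (SD, n = 10) in the Jerseys. REC8 entered the fit of both breeds only through the low-RFI Holsteins, which are high and on which it had been listed, so its breed values favour the Holsteins and no test is read from them. The log2 fold change of Jersey against Holstein was -2.93 with an SE of 2.10 in edgeR, and -1.11 without cows 10 and 17. DESeq2 gave -4.35, with an adjusted p under its threshold as for 6.84% of all genes. UHRF1 was at 3.93 ± 4.27 CPM (SD, n = 9) in the Holsteins and 5.76 ± 2.63 CPM (SD, n = 10) in the Jerseys, with a log2 fold change of 1.03 and an SE of 0.65 (edgeR adjusted p = 0.410; exact permutation p = 0.122). It was not among the 409 of 12103 genes (3.38%) that edgeR called between the breeds.

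The genes most like each member were sought over the 19 cow means of log2 CPM, centred within each breed, among the 11827 genes above the limit in both breeds. For REC8 the highest Pearson correlations were 0.69 for ENSBTAG00000002243 and ENSBTAG00000017945. Among the 5 most like it, SEMA4G, a transmembrane semaphorin, followed at 0.68. For UHRF1 they were 0.77 for ENSBTAG00000004945 and 0.76 for ENSBTAG00000021964. FICD, an enzyme of the endoplasmic reticulum that modifies the chaperone BiP, was also among the 5, at 0.76, with 0.22 in the Jerseys alone. Symbols were known only for genes on the study's RFI lists, and SEMA4G and FICD are on the same Holstein list as REC8 and UHRF1, a choice that favours likeness among the Holsteins. These are descriptions over cows that also share the diets and the sequencing run, and no test was made.

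The wider cohesin and DNA methylation genes could not be followed. Of 22 cohesin genes only REC8, and of 25 genes of DNA methylation only UHRF1, had a symbol paired with an identifier, and of 28 meiosis genes and 50 proliferation genes none had.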

How the data were processed

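Liver biopsies of 19 cows gave 38 libraries. The authors removed adapters with cutadapt 1.6f, aligned read pairs with STAR 2.3.0 to UMD3.1 (Ensembl release 82, at most 5 mismatches) and deposited raw counts of read pairs per gene from HTSeq, one table per library. The HTSeq version and strand setting are not given in the sources used here, so reads of antisense or overlapping genes cannot be told apart. A median of 24.0% of read pairs per library was not on genes and was left out of library sizes.

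CPM was computed from these counts over all Ensembl genes. Genes with at least 1 CPM in 8 Holstein or 10 Jersey libraries were tested with edgeR 4.0.16 in R 4.3.3 (TMM, quasi-likelihood F-test, two-sided, Benjamini-Hochberg over all genes tested, threshold 0.05). Diet, RFI group and their interaction were fitted to libraries with parity as covariate, parity and breed to the summed libraries of a cow, and the breed by diet term to all libraries. Fits with RFI group on libraries treat the libraries of a cow as independent. Single values were tested by exact permutation of cows. Log2 CPM had a prior count of 2. Procedures were tested on simulated data. Alternatives were DESeq2 1.42.0, its size factors, no TMM, no limit on low counts, the cow as a block (edgeR, or limma 3.58.1 with voom), the order of diets, and each cow left out. Blocked fits without each cow and exact tests with cows left out were added after seeing the data.

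The cow number in the labels pairs a C with an HC library. As a check, 15 of 18 Holstein and 12 of 20 Jersey libraries had their own cow's other library as the nearest. No libraries of a cow agreed within counting noise. The on/off genes used to compare libraries had a step of at least 3-fold between neighbouring libraries, with at least 2 libraries on each side. Members and gene lists were chosen with earlier results of these data known. Genes named were both members, the 5 genes most like each (only those with a symbol and the highest identifiers are printed) and their annotated neighbours. The gene lists were not tested, since 4 of 202 genes were paired with identifiers, below the 80% required. Symbols come from the study's lists of differing genes, whose fold changes and p-values were not used.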

Additional observations from a re-analysis of the deposited data

How the results depend on the processing

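For 24 results, 405 alternatives were computed. Of these, 365 were counted as unchanged, 24 changed sign and 16 became called. For tested values, unchanged meant the same direction and side of the threshold, with exact p-values unadjusted. The Holstein RFI levels and the agreement had no test. For them it meant a move below the SD of the cow means, or below the SE from leaving out each cow. That SE was 0.469 for the agreement of UHRF1 in Jerseys, so its moves were counted leniently. The cause of these changes was not tested, and no tested value that changed sign was called before or after.

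The replicate block changed a call for REC8 on the diets in the Holsteins alone. Its diet difference was 0.88 with the cow as a fixed block and 0.74 with the order of the diets added, both called. With that block and without cow 1, 2, 6, 7, 9, 11, 15, 16 or 19 it was 0.82, 0.89, 0.99, 0.93, 0.88, 0.70, 0.91, 0.92 or 0.90, all called. Cows 2, 7, 9, 15 and 19 lacked REC8, so leaving them out could change the difference little. Without the block it was 0.71 to 0.95 leaving out each cow, called only without cow 19. A random block turned the diet difference of UHRF1 in the Jerseys to 0.00481.

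Other alternatives counted as adding a call were no limit on low counts for REC8 between the Jersey RFI groups (3.76), and DESeq2 for REC8 between the breeds (-4.35), where no test is read. Leaving out Jersey 3 or 12 for the Jersey RFI value of REC8 was also counted so (range over cows 1.61 to 2.98). That count rests on an unadjusted exact permutation p, from which nothing is read. Leaving out each cow, the diet difference of UHRF1 was -0.00438 to 0.28 for Holsteins and -0.39 to 0.00360 for Jerseys, and that of REC8 -0.00599 to 0.24 for Jerseys. The diet by RFI interaction was -0.81 to 0.80 for UHRF1 in Holsteins and -0.066 to 0.42 for REC8 in Jerseys. The breed by diet interaction of UHRF1 was -0.59 to 0.00489, its Holstein parity difference -0.66 to 0.58, and its agreement within Jersey cows -0.0446 to 0.602. Without Jerseys 10 and 17, UHRF1 gave 0.27 for diet, -0.22 for diet by RFI in Jerseys and 0.15 for diet by breed, and REC8 gave -0.24 for diet by RFI. For UHRF1 in Holsteins, diet by RFI was 0.065 without TMM, 0.15 with DESeq2 and 0.12 by exact permutation, and parity was -0.17 by exact permutation. With no limit on low counts, REC8 gave -0.18 for diet by RFI in Jerseys.

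Counts of genes called moved by more than 1.5 times. For diet in Holsteins they were 94, 343 with DESeq2, 345, 311 and 271 with the fixed block, the order of diets and the random block, and 15 to 135 leaving out each cow. For diet in Jerseys they were 44, 196 with DESeq2, 71 with the fixed block, 84 with the order of diets, 7 without Jerseys 10 and 17, and 3 to 51 leaving out each cow. Without TMM, 21 genes were higher and 72 lower on HC in Holsteins (31 and 63 with it), and 13 and 44 in Jerseys (27 and 17 with it). For RFI in Jerseys they were 4, 21 with DESeq2, 8 with no limit, 0 on summed libraries (461 at an unadjusted p under 0.05) and 1 to 6 leaving out each cow. For breed they were 409, 828 with DESeq2, 871 with the random block, 72 without Jerseys 10 and 17, and 192 to 757 leaving out each cow. For parity they were 1 in Holsteins and 0 in Jerseys, 73 and 122 with DESeq2, and 7 and 10 with the random block. Below 1 CPM a level rests on about 20 read pairs or fewer.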

Other observations

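The genes running most opposite to the members were looked up after their values were seen. For UHRF1 it was ENSBTAG00000021145, with a Pearson correlation of -0.92 over the 19 breed-centred cow means, -0.97 over the 9 Holsteins and -0.87 over the 10 Jerseys. The level of this gene ranged only from 2.99 to 5.58 CPM over the single libraries. For REC8 it was ENSBTAG00000020754, at -0.81 (Holsteins -0.93, Jerseys -0.61), with a level of 2.75 to 5.23 CPM. Both values were larger in size than those of the genes most like each member. They are descriptions over cows, without a test, and no symbol was paired with these identifiers.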
